A study of Mus musculus with 18 samples.

Results

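Maco1, Tmem179, Tmem63c, Tram1l1, Nipal2 and Plppr3 are 6 of the 38561 genes counted, and each encodes a protein that crosses a membrane several times. They were taken from a list of multi-pass membrane protein genes because each had a small p-value for a higher level in Pcm1-/- brain in at least 1 region, so they were chosen by the genotype contrast in these same libraries. That difference is therefore given below as a description and supports nothing by itself, and the tests concern differences between regions and other genes. The rule named no numerical limit. Ranked by p among the genes that were higher in mutants, the best place of each gene was 1 for Tmem179 in the frontal cortex, 2 for Maco1 in the striatum, 5 for Plppr3 in the striatum, 6 for Tmem63c in the striatum, 11 for Tram1l1 in the frontal cortex and 31 for Nipal2 in the frontal cortex.

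mRNA was sequenced from the frontal cortex, striatum and hippocampus of adult mice of the C57 Bl6J background, either WT or Pcm1-/- (named PCM1 KO in the sample labels and in the plots), with 3 libraries for each genotype and region and 18 in all. PCM1 is a scaffold protein of the centriolar satellites that surround the base of the cilium. The mutants descend from the gene-trap embryonic stem cell line E14Tg2a.4, whose parent strain is a 129 strain, and were backcrossed to C57BL/6J for at least 3 generations, and the WT mice were their littermates. The insertion is carried by all cells, no treatment was given, and each animal gave all 3 regions, so the regions are not independent of one another.

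Proteins that cross a membrane several times enter the endoplasmic reticulum (ER) while they are being made, through a translocation channel, and then stay there or travel on to the plasma membrane. Maco1 encodes macoilin, an ER protein that is abundant in neurons. Tram1l1 is a relative of Tram1, whose protein sits beside the translocation channel. Tmem63c belongs to a family of cation channels that open under membrane tension or osmotic stress, and Nipal2 to a family that includes magnesium transporters. Plppr3 encodes a neuronal relative of the phospholipid phosphatases that acts at the surface of growing axons, and the function of Tmem179 is little known.

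The 6 genes lie at 6 separate places in the GRCm38 build. Maco1 (ENSMUSG00000028826) occupies chr4:134802759-134853345 on the minus strand, and its longest annotated protein has 664 residues with 4 hydrophobic stretches, counted as windows of 19 residues with a mean Kyte-Doolittle hydropathy of at least 1.6. Tmem179 (ENSMUSG00000054013, chr12:112500189-112516747, minus strand) has 233 residues and 4 such stretches. Tmem63c (ENSMUSG00000034145, chr12:87021340-87090043, plus strand) has 802 residues and 9 stretches, the most of the 6. Tram1l1 (ENSMUSG00000044528, chr3:124320855-124324743, plus strand) is the one with a single exon, and its 363 residues hold 4 stretches. Nipal2 (ENSMUSG00000038879, chr15:34572799-34679212, minus strand) has 383 residues and 7 stretches, and Plppr3 (ENSMUSG00000035835, chr10:79860475-79874634, minus strand) has 716 residues and 5.

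Promoter sequences of 5 of the genes were present in the RefSeq table of the GRCm38.p6 build, each with 250 bases before and 50 after a RefSeq start. The gene positions above are those of GENCODE, and the starts are not always the same. For Maco1, Plppr3 and the first of the 2 starts of Tmem63c they coincide, whereas the RefSeq start of Tram1l1 lies 182 bases inside the GENCODE gene. That of Tmem179 lies 5587 bases inside it, 12 bases past the start of its other GENCODE transcript, so the Tmem179 window is upstream of that transcript and inside the gene as a whole. Those of Tmem179, Tram1l1 and Plppr3 are printed because they hold the same run of 10 bases with 1 position free, and that of Maco1 because it does not. Capitals mark the letters GTTNCCATGG on either strand, which begin with GTTNCC, like 1 arm of the X-box to which RFX transcription factors bind. The other arm was not searched for. All are written 5′ to 3′ on the strand of the gene, which is chr12:112511111-112511410 (minus) for Tmem179, chr3:124320787-124321086 (plus) for Tram1l1, chr10:79874585-79874884 (minus) for Plppr3 and chr4:134853296-134853595 (minus) for Maco1.
Tmem179: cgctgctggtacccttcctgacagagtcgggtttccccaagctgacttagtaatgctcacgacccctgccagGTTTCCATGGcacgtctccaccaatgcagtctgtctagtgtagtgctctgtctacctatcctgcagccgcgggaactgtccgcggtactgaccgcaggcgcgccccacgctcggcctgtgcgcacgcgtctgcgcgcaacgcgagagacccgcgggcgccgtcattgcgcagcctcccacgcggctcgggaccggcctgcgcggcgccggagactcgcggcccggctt
Tram1l1: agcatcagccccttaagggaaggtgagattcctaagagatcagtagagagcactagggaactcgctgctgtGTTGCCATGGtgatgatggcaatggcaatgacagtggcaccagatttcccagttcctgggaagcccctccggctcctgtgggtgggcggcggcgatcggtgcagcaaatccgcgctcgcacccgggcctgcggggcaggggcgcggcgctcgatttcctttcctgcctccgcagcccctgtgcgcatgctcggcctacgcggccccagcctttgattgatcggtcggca
Plppr3: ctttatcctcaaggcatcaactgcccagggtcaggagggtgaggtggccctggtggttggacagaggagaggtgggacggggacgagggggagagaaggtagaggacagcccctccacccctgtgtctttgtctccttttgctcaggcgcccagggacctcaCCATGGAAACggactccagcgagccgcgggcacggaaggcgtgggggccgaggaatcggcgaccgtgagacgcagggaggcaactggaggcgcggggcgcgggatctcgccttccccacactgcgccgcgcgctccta
Maco1: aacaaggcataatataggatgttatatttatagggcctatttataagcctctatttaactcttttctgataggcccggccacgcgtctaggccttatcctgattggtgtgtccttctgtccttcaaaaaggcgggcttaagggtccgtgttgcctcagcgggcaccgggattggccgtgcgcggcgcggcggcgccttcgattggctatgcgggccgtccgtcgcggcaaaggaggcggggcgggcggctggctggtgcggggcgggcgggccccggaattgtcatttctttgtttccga
The match begins 178 bases before the RefSeq start in Tmem179, 179 bases before it in Tram1l1 and 88 bases before it in Plppr3, where it reads on the opposite strand. By the GENCODE gene starts it lies 5409 bases inside Tmem179 and 3 bases inside Tram1l1, and the match in Plppr3 alone is upstream. The run was found in these promoters, as the core CCATGG with the flanking bases that most of the 5 share, and the name X-box was given to it afterwards, so the count of 3 of 5 is a description only. They occur in 1.33% of the 27025 genes of the table and in 1.16% of the 12783 of these that were tested. Of the 180 that rose in the mutant frontal cortex 3 hold it, and these include Tmem179 and Tram1l1, in whose promoters it was found, so 1 of the 176 that are not among the 6 holds it. The shorter core CCATGG, which lies inside the longer run and so overlaps it, was in 4 of the 5, in 10.9% of all genes and in 9.70% of those tested. The CRE, TGACGTCA, and the E-box, CACGTG, were in none of the 5 windows, against 2.03% and 8.09% of all genes and 3.25% and 11.0% of those tested. The GC box, GGGCGG, was in the windows of Maco1 and Tram1l1 and in 38.2% of all genes, or 64.3% of those tested. CCAAT was in 3 of the 5 and in 41.1% of all genes (42.0% of those tested), and TATAAA in Maco1 and Tmem63c and in 15.7% of all genes (9.52% of those tested). GC content was 67.3% for Tmem179, 66.7% for Plppr3, 63% for Tram1l1, 58.3% for Maco1 and 50.3% and 55.3% at the 2 starts of Tmem63c, beside a median of 52.7% over all windows. A match is a run of letters, and no factor's binding was measured.

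The libraries held between 24950537 and 33405081 counts on genes, and 17545 genes reaching 10 counts in any library were tested, all 6 genes among them. Pcm1, the targeted gene, stood in mutants at 9.10% of its WT level in the frontal cortex, 10.2% in striatum and 8.89% in hippocampus. Markers of each dissected region were highest in that region: the lowest library of the named region held 3.20 times the CPM (counts scaled to library size) of the highest library of any other for the frontal cortex list, 33.1 times for the striatum list and 1.97 times for the hippocampus list. Lane 5 carried every WT library of the striatum and lanes 3 and 4 the mutant ones, and genotype and lane cannot be told apart there. In tissue RNA of this kind, fewer cells of a type and less RNA per cell cannot be told apart.

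All 6 genes stood higher in every mutant than in every WT library of the frontal cortex, where 12% of all genes tested did so. In the striatum 5 of the 6 did, against 9.6% of all genes, and in the hippocampus 4 of the 6, against 10.6%. Maco1, Tmem179, Tmem63c and Tram1l1 were separated in all 3 regions, as were 1.9% of all genes. These counts rest on the contrast that chose the genes, and nothing is read from them. Levels are given in CPM, scaled by TMM factors, for the libraries in the order of their replicate numbers.

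**Figure D1:**
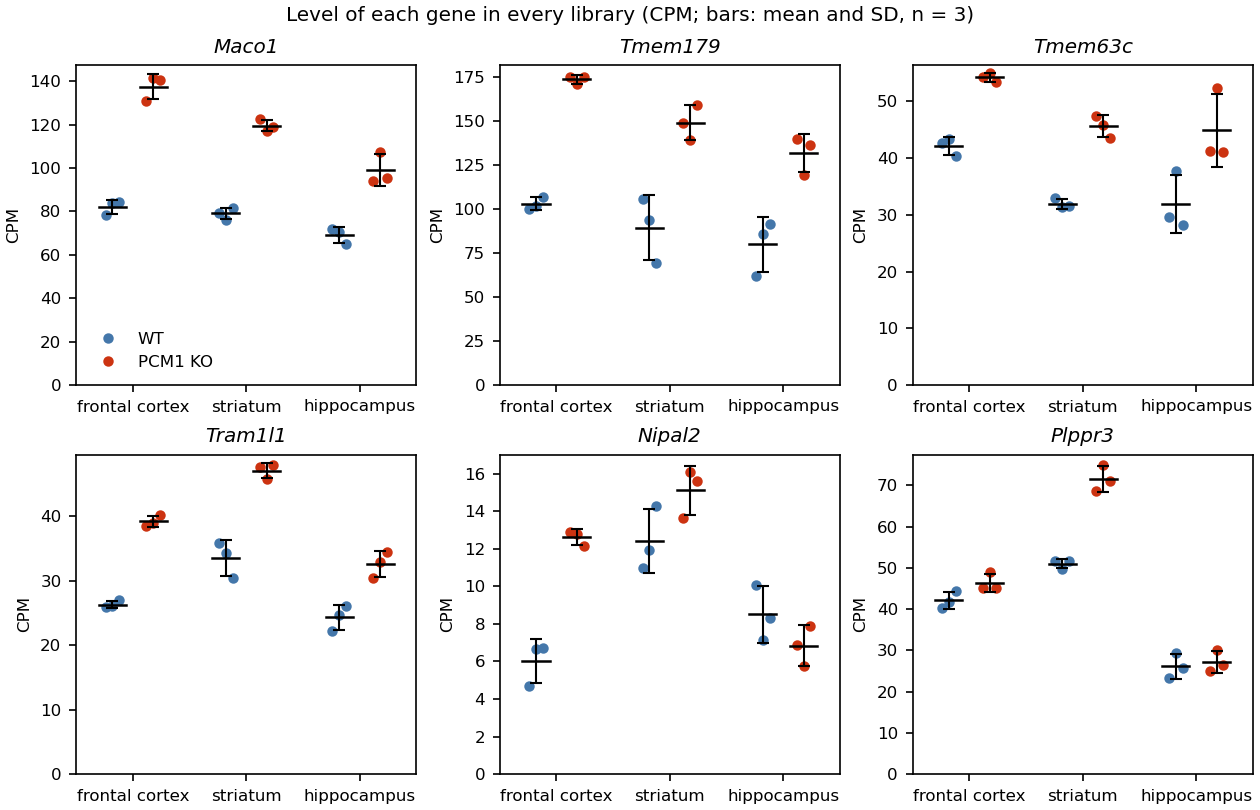
Level of each gene in CPM (vertical axes, from 0) in every library of the 3 regions (horizontal axes); points are libraries, blue for WT and red for Pcm1-/- (PCM1 KO), and the black lines are the mean and SD of 3. Maco1 and Tmem179 show no overlap between genotypes anywhere, whereas Nipal2 overlaps in the striatum and hippocampus and Plppr3 in the hippocampus.

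Maco1, the ER protein gene, was measured in the frontal cortex at 78.2, 83.9 and 84.2 CPM in WT mice and at 131, 142 and 140.5 CPM in mutants. Its striatal values were 79.5, 76.2 and 81.5 CPM in WT and 122, 117 and 119 CPM in Pcm1-/- mice. In the hippocampus WT libraries gave 72.0, 70.5 and 65.1 CPM and mutant ones 94.1, 108 and 95.4 CPM. The lowest of the 9 mutant values, in the hippocampus, lay above the highest of the 9 WT values, in the frontal cortex. Maco1 and Tmem179 share this property with 0.194% of all genes tested, 34 in number. The log2 fold change of Maco1 was 0.74 (SE 0.058) in the frontal cortex, 0.60 (SE 0.052) in striatum and 0.50 (SE 0.079) in hippocampus, or ratios of 1.68, 1.51 and 1.43.

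Tmem179 gave 100.1, 102 and 107 CPM in the WT and 175, 171 and 175 CPM in the mutant frontal cortex. In the striatum it gave 106, 93.4 and 69.0 CPM in WT and 149, 139 and 159 CPM in Pcm1-/- mice. Its hippocampal values were 62.1, 85.9 and 91.2 CPM in WT and 139.7, 119 and 136 CPM in mutants. The WT libraries varied more in the striatum and hippocampus, with SDs of 18.6 and 15.5 CPM, than in the frontal cortex, with an SD of 3.61 CPM, and the third WT striatal and the first WT hippocampal libraries were the low ones. The log2 fold change was nevertheless close in size across regions, at 0.75 (SE 0.051), 0.74 (SE 0.14) and 0.71 (SE 0.15) in frontal cortex, striatum and hippocampus. Leaving out single libraries moved it between 0.58 and 0.88 in the striatum and between 0.55 and 0.81 in the hippocampus.

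For Tmem63c, of the mechanosensitive channel family, WT frontal cortex libraries gave 42.7, 43.5 and 40.4 CPM and mutant ones 54.3, 54.9 and 53.5 CPM. WT striatum gave 33.0, 31.3 and 31.6 CPM and mutant striatum 47.4, 45.9 and 43.6 CPM. WT hippocampus gave 29.7, 37.8 and 28.2 CPM and mutant hippocampus 41.3, 52.4 and 41.1 CPM. The second library was the highest of its hippocampal group in both genotypes, and the genotypes were 3.32 CPM apart at their nearest. The log2 fold change was 0.35 (SE 0.053), 0.52 (SE 0.063) and 0.48 (SE 0.14) in frontal cortex, striatum and hippocampus.

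Tram1l1, the translocation gene relative, stood at 25.9, 26.1 and 27.0 CPM in WT and at 38.5, 38.9 and 40.2 CPM in mutant frontal cortex. Striatal libraries held 35.8, 34.3 and 30.5 CPM in WT and 47.7, 45.7 and 47.9 CPM in mutants. Hippocampal libraries held 22.3, 24.7 and 26.1 CPM in WT and 30.4, 33.0 and 34.5 CPM in mutants. Every mutant library exceeded every WT library of its region. However, the lowest mutant value (30.4 CPM, hippocampus) lay below the highest WT value (35.8 CPM, striatum), since the regions also differ. The log2 fold change was 0.57 (SE 0.057), 0.49 (SE 0.074) and 0.40 (SE 0.096) in the same order of regions.

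Nipal2, of the magnesium transporter family, was the lowest of the 6, and its largest ratio was in the frontal cortex, with 4.69, 6.66 and 6.71 CPM in WT and 12.9, 12.8 and 12.2 CPM in mutants. These are 134 to 182 counts in WT and 346 to 414 counts in mutant libraries. In the striatum WT mice had 11.0, 11.9 and 14.3 CPM and mutants 13.6, 16.1 and 15.6 CPM, and the groups overlapped. In the hippocampus they had 10.1, 7.12 and 8.30 CPM and 6.87, 5.75 and 7.90 CPM, with the mutant mean below the WT mean and the groups again overlapping. The log2 fold change was 1.06 (SE 0.14) in the frontal cortex, 0.29 (SE 0.12) in striatum and -0.33 (SE 0.18) in hippocampus. Whether these differ between regions was not tested, because the frontal cortex value chose the gene.

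Plppr3, the phospholipid phosphatase relative, stood out in the striatum, with 51.7, 49.7 and 51.7 CPM in WT and 68.5, 74.9 and 71.1 CPM in mutants. The frontal cortex gave 40.3, 41.8 and 44.4 CPM in WT and 45.1, 49.0 and 45.1 CPM in mutants, groups that were 0.723 CPM apart. The hippocampus gave 23.3, 29.4 and 25.6 CPM in WT and 25.0, 30.1 and 26.4 CPM in mutants, which overlapped. The log2 fold change was 0.13 (SE 0.063) in the frontal cortex, 0.49 (SE 0.058) in striatum and 0.039 (SE 0.11) in hippocampus. Plppr3 shares 4297 bases with Ptbp1, the gene of a splicing regulator on the opposite strand, and 159 bases with Prtn3. The strand setting of the counting is not given in the sources used here, so reads from these genes may not be told apart. Ptbp1 had log2 fold changes of -0.29, -0.21 and -0.34 in frontal cortex, striatum and hippocampus (adjusted p = 0.204, 0.522 and 0.581, edgeR), and Prtn3 had 7 to 45 counts in any library.

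**Figure D2:**
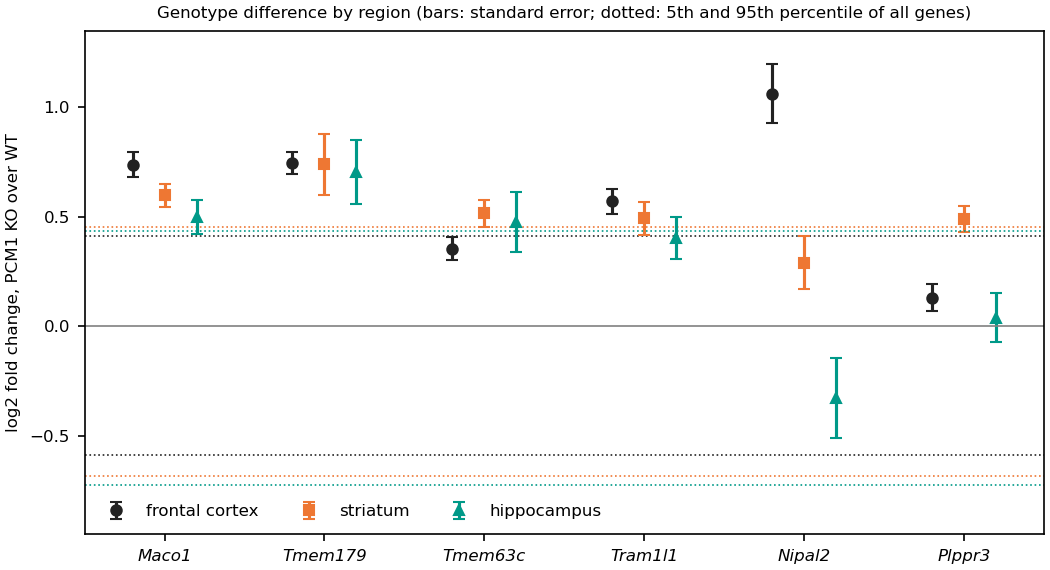
Log2 fold change of Pcm1-/- (PCM1 KO) over WT (vertical axis) for each gene (horizontal axis) in the frontal cortex, striatum and hippocampus; error bars are standard errors, and dotted lines in the colour of each region mark the 5th and 95th percentiles of all genes tested. Tmem179 lies between 0.71 and 0.75 in all regions, Nipal2 runs from 1.06 to -0.33, and Plppr3 is above the 95th percentile in the striatum.

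Over all genes tested the median log2 fold change was -0.0066 in the frontal cortex, -0.0023 in striatum and -0.00033 in hippocampus, and the 95th percentile was 0.41, 0.45 and 0.43. Ordered among all genes, the cortical fold change lay at percentile 98.3 for Maco1, 98.4 for Tmem179, 93.5 for Tmem63c, 97.2 for Tram1l1, 99.3 for Nipal2 and 79.4 for Plppr3. The striatal ones lay at 97.1, 98.0, 96.2, 95.9, 90.2 and 95.8 in the same order. In the hippocampus Maco1, Tmem179, Tmem63c and Tram1l1 lay at 96.2, 98.1, 95.9 and 94.4, whereas Nipal2 was at 15.5 and Plppr3 at 58.2.

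Summed markers of several cell types moved with genotype in the same libraries. The 5 oligodendrocyte markers summed to between 1651 and 2182 CPM in WT and between 1503 and 1594 CPM in mutant frontal cortex, and to between 7850 and 7960 CPM and between 4815 and 7700 CPM in the striatum. The hippocampus gave 4237 to 7950 CPM in WT and 3162 to 5129 CPM in mutants, which overlapped. Mutant sums also lay below all WT sums for microglia in the frontal cortex (256 to 289.6 against 298 to 399.6 CPM), for endothelial cells in the frontal cortex (121 to 129 against 136 to 193 CPM) and hippocampus (94.0 to 107 against 111 to 165 CPM), and for astrocytes in the striatum (1182 to 1271 against 1333 to 1882 CPM). Neuronal sums overlapped in all regions, at 8996 to 9859.9 CPM in WT and 9775 to 10223 CPM in mutant frontal cortex. Sums of the 5 striatal markers were higher in mutants in the frontal cortex (66.6 to 89.1 against 61.4 to 63.2 CPM) and in the striatum (3883 to 4152 against 2948 to 3545 CPM). Choroid plexus markers ranged from 50.8 to 5966 CPM in WT and from 30.5 to 164 CPM in mutant striatum, and from 2137 to 6249 CPM and from 219.7 to 4137 CPM in the hippocampus. No marker was at 0 in all libraries of a region, no glial, endothelial, choroid plexus or ependymal marker passed an adjusted p of 0.05 in any region, and 1 neuronal and 1 striatal marker rose in the frontal cortex. Their part in the values of the 6 genes was not tested.

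The next comparison asked where in the brain each gene was highest, using the mean of both genotypes. The error of this mean is uncorrelated with that of the genotype difference only where both genotypes have the same spread. In 6 of the 18 pairs of gene and region the SDs of log2 CPM differed by more than 2 times, with 0.29 in WT and 0.047 in mutants for Nipal2 in the frontal cortex and 0.32 and 0.095 for Tmem179 in the striatum. The tests between regions are therefore not fully separate from the choice of the genes. The choice of the genes favoured low WT values as well as high mutant ones, so values from WT or mutant libraries alone are given as a description and are no independent check. Plppr3 had the widest range, with the striatum above the frontal cortex and the hippocampus lowest. Tmem63c was lower in striatum and hippocampus than in the frontal cortex, Nipal2 was highest in the striatum, and Maco1 was lower in the hippocampus than in the frontal cortex. Between striatum and frontal cortex 5 of the 6 genes passed an adjusted p of 0.05 (edgeR's quasi-likelihood test on the 18 libraries, Benjamini-Hochberg over all genes), where 61.9% of all genes did. In WT libraries alone 4 passed, and 7289 to 11521 of all 17545 genes passed over the alternative fits, WT libraries alone among them. Between hippocampus and frontal cortex 5 of the 6 passed, all lower in the hippocampus, against 51.8%. In WT libraries alone 3 passed, where 5230 of all 17545 genes did. Between striatum and hippocampus 4 of the 6 passed, all higher in the striatum, against 52.5%. In WT libraries alone 3 passed, where 5126 of all genes did. These shares are high for all genes, so a difference between regions is no mark of the 6.

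**Figure D3:**
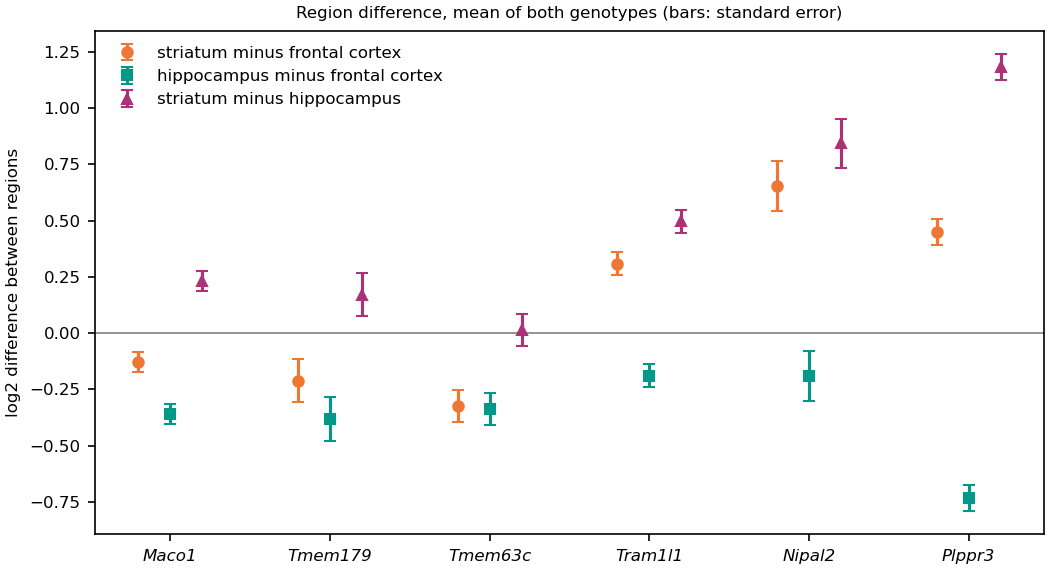
Log2 difference between pairs of regions (vertical axis), averaged over both genotypes, for each gene (horizontal axis); error bars are standard errors from the fit of 18 libraries. Plppr3 shows the widest spread, from -0.73 for hippocampus against frontal cortex to 1.18 for striatum against hippocampus, and Tmem63c lies near 0 in the latter.

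Plppr3 was 0.45 (SE 0.058) higher on the log2 scale in the striatum than in the frontal cortex (adjusted p = 3.46e-06) and 1.18 (SE 0.059) higher than in the hippocampus (adjusted p = 2.33e-11), and its hippocampal level was below the cortical one (-0.73, SE 0.059, adjusted p = 2.38e-08). WT libraries alone gave 0.28, 0.97 and -0.70 (adjusted p = 0.0322, 2.01e-05 and 0.000352, edgeR). Tram1l1 was higher in the striatum than in the frontal cortex (0.31, SE 0.051, adjusted p = 5.64e-05) and the hippocampus (0.50, SE 0.051, adjusted p = 3.11e-07), with WT values of 0.35 and 0.47 (adjusted p = 0.0104 and 0.00293, edgeR). Its lower level in the hippocampus than in the frontal cortex (-0.19, SE 0.051, adjusted p = 0.00543) did not pass in WT libraries alone (-0.11, adjusted p = 0.386). For Nipal2 the striatum exceeded the frontal cortex by 0.65 (SE 0.11, adjusted p = 6.92e-05) and the hippocampus by 0.84 (SE 0.11, adjusted p = 5.97e-06), and in WT libraries by 1.04 and 0.55 (adjusted p = 0.00117 and 0.0438, edgeR). In mutant libraries alone the first of these was 0.27 (adjusted p = 0.0624). Hippocampus and frontal cortex were not told apart (-0.19, SE 0.11, adjusted p = 0.170). Here WT libraries alone gave 0.49 (adjusted p = 0.0694) and mutant libraries alone -0.88 (adjusted p = 0.000136), and both contain the frontal cortex values that chose Nipal2, so nothing is read from their difference.

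Maco1 was lower in the hippocampus than in the frontal cortex (-0.36, SE 0.044, adjusted p = 2.96e-06), and WT libraries alone gave -0.25 (adjusted p = 0.0189). Its difference between striatum and frontal cortex (-0.13, SE 0.044, adjusted p = 0.0168) was -0.052 in WT libraries alone (adjusted p = 0.580), and that between striatum and hippocampus (0.23, SE 0.044, adjusted p = 0.000257) was 0.20 (adjusted p = 0.0507), so neither passed there. Tmem63c was lower in the striatum (-0.33, SE 0.071, adjusted p = 0.000760) and also in the hippocampus (-0.34, SE 0.071, adjusted p = 0.000735) than in the frontal cortex, with WT values of -0.40 and -0.41 (adjusted p = 0.0119 and 0.0151, edgeR). Striatum and hippocampus were not told apart for Tmem63c (0.014, SE 0.071, adjusted p = 0.885). Tmem179 was lower in the hippocampus than in the frontal cortex (-0.38, SE 0.096, adjusted p = 0.00317), which did not pass in WT libraries alone (-0.37, adjusted p = 0.122). Its striatal level passed the test against neither the frontal cortex (-0.21, SE 0.096, adjusted p = 0.0658) nor the hippocampus (0.17, SE 0.096, adjusted p = 0.152). This fit does not use the animal that each library came from, and with the animal as a block the former passed (-0.22, adjusted p = 0.0379).

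Per kilobase of annotated exon, Tmem179 was the most abundant of the 6 in WT mice and Nipal2 the least. In the WT frontal cortex the levels were 41.2 ± 1.44 CPM per kilobase for Tmem179, 12.2 ± 0.503 for Maco1, 10.3 ± 0.384 for Tmem63c, 9.68 ± 0.466 for Plppr3, 6.76 ± 0.148 for Tram1l1 and 0.709 ± 0.136 for Nipal2 (SD, n = 3). The means of Tmem63c and Plppr3 are closer than the sum of their SDs. In the WT striatum Plppr3 and Maco1 were level, both at 11.7 CPM per kilobase, above Tram1l1 (8.62 ± 0.707) and Tmem63c (7.82 ± 0.223), which are also closer than the sum of their SDs. In the WT hippocampus Maco1 (10.3 ± 0.537) and Tmem63c (7.80 ± 1.26) were followed by Tram1l1 (6.26 ± 0.496) and Plppr3 (5.99 ± 0.712), and by the same measure Tram1l1 was separated from neither Tmem63c nor Plppr3.

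Closest in pattern to Maco1 over the 18 libraries were Jkamp (Pearson's r of log2 CPM 0.945), Tex264 (0.944) and Ncln (0.919). Tmem179 was most like Dnajc16 (0.967), B4gat1 (0.956) and Tmem35a (0.950). For Tmem63c the closest genes were Prrt3 (0.955), Ptprn (0.950) and Ei24 (0.937), and for Tram1l1 they were 4933434E20Rik (0.974), Bfar (0.963) and Gpr137c (0.955). Nipal2 had weaker matches, Cldn12 (0.856), Yif1a (0.840) and Ilvbl (0.836), and Plppr3 was closest to Inafm1 (0.977), Ndrg4 (0.975) and Cgref1 (0.974). Among the 6, Maco1 and Tmem179 were nearest to one another at 0.883, and Tmem63c and Nipal2 least alike at 0.0495. The search covered 12869 genes with a mean log2 CPM of at least 1, and the libraries share 6 animals, lanes, regions and genotypes, so these values are descriptions.

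The close relatives of the 6 genes were then examined, from lists written by nomenclature. Of 14 listed, 12 were tested, and 10 of the 12 had a log2 fold change above 0 in the frontal cortex, 8 in striatum and 9 in hippocampus, against 48.1%, 49.1% and 49.8% of all genes. Tmem63b, a paralogue of Tmem63c, rose in the frontal cortex (log2 fold change 0.34, SE 0.052, adjusted p = 0.0205, edgeR), where 1.41% of all genes rose and 1.74% were called in either direction. Nipa1, a magnesium transporter gene of the Nipal2 family, rose as well (0.39, SE 0.064, adjusted p = 0.0240). The third paralogue, Tmem63a, fell there (-0.43, SE 0.082, adjusted p = 0.0406), from 17.5 ± 1.42 to 13.0 ± 0.145 CPM (SD, n = 3). These calls are fragile: none of the 3 genes passed with lane in the model (0.35, 0.33 and -0.37 for Tmem63b, Nipa1 and Tmem63a, adjusted p = 0.0906, 0.0822 and 0.157, edgeR). With single libraries left out each passed in 1 of 6 fits, the one without WT replicate 3, and the fold changes stayed at 0.30 to 0.37, 0.33 to 0.43 and -0.50 to -0.38. The sum of the oligodendrocyte markers was lower in the same mutant libraries, and its part in these values was not tested.

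The TMEM63 genes were not alike in level or in their distribution across the brain. Per kilobase of exon Tmem63b led in the WT frontal cortex with 26.2 ± 1.13 CPM, followed by Tmem63c with 10.3 ± 0.384 and Tmem63a with 3.89 ± 0.316. In the WT striatum Tmem63a, at 13.5 ± 1.59, stood above Tmem63c, at 7.82 ± 0.223, and Tmem63b was at 20.6 ± 1.07. In the striatum and hippocampus Tmem63b had log2 fold changes of 0.25 and 0.26 (adjusted p = 0.195 and 0.418) and Tmem63a of -0.48 and -0.60 (adjusted p = 0.234 and 0.461), none past the threshold.

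Tram1, the better known relative of Tram1l1, was more abundant than Tram1l1 in every WT region, at 12.3 ± 0.517, 10.7 ± 0.888 and 14.7 ± 0.609 CPM per kilobase in the frontal cortex, striatum and hippocampus. Its log2 fold changes were 0.22, -0.085 and 0.13 (adjusted p = 0.149, 0.674 and 0.593), none of which passed. Tram2 was rare, at 0.26 to 0.35 CPM per kilobase in WT mice.

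Among the PLPPR genes, Plppr3 was far from the most abundant. Plppr2 and Plppr4 had 70.4 ± 2.86 and 35.1 ± 4.16 CPM per kilobase in the WT frontal cortex, beside 9.68 ± 0.466 for Plppr3. Plppr1 was highest in the striatum, with 5.37 ± 0.0871 CPM per kilobase there and 0.670 ± 0.103 in the frontal cortex of WT mice. In the striatum Plppr1, Plppr2, Plppr4 and Plppr5 had log2 fold changes of 0.45, 0.31, 0.29 and 0.13, with adjusted p = 0.103, 0.125, 0.243 and 0.522 in the edgeR fit, so none passed. The hippocampal values were 0.41, 0.39, 0.45 and 0.33 (adjusted p = 0.557, 0.455, 0.396 and 0.405), larger than in the striatum for all but Plppr1, in a region where that of Plppr3 was 0.039. In the frontal cortex they were 0.069, 0.11, 0.21 and 0.090, and none passed.

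Nipal2 had the lowest mean of the tested genes of its family in the striatum and hippocampus of both genotypes. WT mice had 1.46 ± 0.199 and 1.00 ± 0.176 CPM per kilobase there, and mutants 1.78 ± 0.154 and 0.805 ± 0.127. The next lowest, Nipal4, had 2.44 ± 0.606 in the mutant striatum. Nipal3 and Nipa1, the most abundant, reached 18.2 ± 0.882 and 18.1 ± 1.32 in the WT frontal cortex, where Nipal2 had 0.709 ± 0.136 and Nipal4 0.714 ± 0.158. The mutant frontal cortex held 1.49 ± 0.0478 of Nipal2 and 0.583 ± 0.0806 of Nipal4. Nipa2 and Nipal3 had log2 fold changes of 0.25 and 0.20 there (adjusted p = 0.0691 and 0.172).

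Other Tmem genes, taken by symbol alone and not by function, leaned upward in the frontal cortex. Of 213 tested, 144 were higher in mutants and 69 lower, the median log2 fold change was 0.11, and 15 rose and 1 fell at an adjusted p of 0.05. The 15 are 7.04% of the list, against 1.41% of all genes. With lane in the model none rose (0.125% of all genes). The count was 0, 0 and 1 without mutant replicates 1, 2 and 3, and 4, 1 and 27 without WT replicates 1, 2 and 3. Of all genes, 0.0456%, 0.103% and 0.222% rose without those mutant replicates and 0.416%, 0.325% and 3.15% without those WT replicates. In the fit of all 18 libraries 9 of the list rose (4.23%, against 0.883% of all genes). With DESeq2 23 did (10.8%, against 2.62%). The median of the list was between 0.10 and 0.12 in all of these fits. Summed markers of oligodendrocytes, microglia and endothelial cells were lower in the same mutant libraries, as given above, and their part in these values was not tested. The 15 include Tmem132c (0.63, adjusted p = 0.0174), Tmem151a (0.38, adjusted p = 0.0177), Tmem35a (0.37, adjusted p = 0.0138) and Tmem56 (0.37, adjusted p = 0.0168), all from edgeR, and Tmem35a is also among the genes closest to Tmem179 in pattern. For Tmem132c the values in striatum and hippocampus were below 0 (-0.48 and -0.46), and neither passed in edgeR. Of the TMEM63 and other mechanosensitive channel genes, 17 were tested, 1 rose and 2 fell, Tmem63a and Tmc4 (-1.65, adjusted p = 0.0378). Of 18 tested genes of the PLPPR, phospholipid phosphatase and lysophosphatidic acid list 1 rose, Plpp7 (0.35, adjusted p = 0.0412), and of 24 tested of the TRAM and ER translocon list 1 rose, Spcs1, a signal peptidase subunit (0.29, adjusted p = 0.0373). The NIPA and magnesium list had 18 tested genes, of which Nipa1 rose. The median log2 fold change of these lists was 0.087, 0.063, 0.11 and 0.12 in that order, and 5 genes stand both on the Tmem list and on another.

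**Figure D4:**
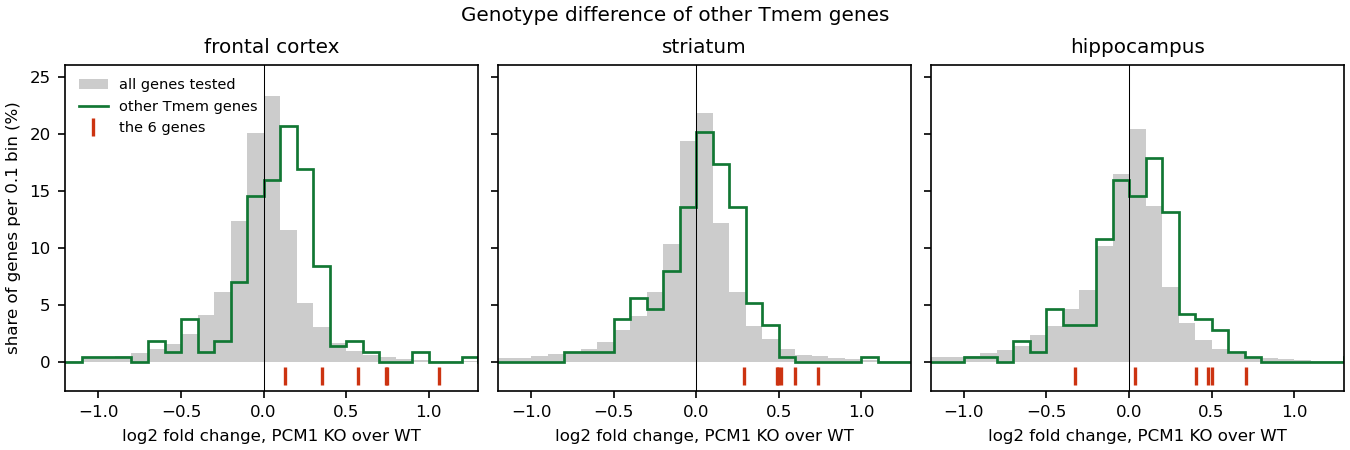
Distribution of the log2 fold change of Pcm1-/- (PCM1 KO) over WT (horizontal axes) in the 3 regions, as the share of genes per bin of 0.1 (vertical axis, percent); grey is all genes tested, the green line the 213 other Tmem genes, and red ticks the 6 genes. The green line lies to the right of the grey in the frontal cortex, where its median is 0.11, and less so in the striatum (0.039) and hippocampus (0.058).

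In the striatum and hippocampus no gene of any list passed in edgeR, where 0.0285% and 0.0171% of all genes did. At an unadjusted p of 0.05, 36 of the 213 other Tmem genes were higher and 12 lower in the mutant striatum, and 29 and 8 in the mutant hippocampus, against 64 and 9 in the frontal cortex. The shares higher were 16.9%, 13.6% and 30% of the list, beside 6.54%, 4.84% and 7.84% of all genes. DESeq2 called 34 genes of all lists in the frontal cortex, 18 in striatum and 9 in hippocampus. These are 13.8%, 7.69% and 3.8% of the listed genes it gave an adjusted p, beside 5.14%, 3.84% and 1.77% of all such genes. In the frontal cortex 20 genes of all lists passed, and each library decided this count: without WT replicates 1, 2 and 3 it was 4, 1 and 39, and without mutant replicates 1, 2 and 3 it was 0, 0 and 1. With lane in the model it was 0.

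The genes around the 6 on their chromosomes were compared next. Of 203 tested genes within 1 Mb, 1 (0.493%) passed the test in 1 region, where 1.74% of all genes did: Tmem50a, whose start lies 61.7 kb from that of Maco1, rose in the frontal cortex (0.31, adjusted p = 0.0361, edgeR). With lane in the model its fold change was 0.31 (SE 0.059) and the adjusted p was 0.0980. The median log2 fold change in the frontal cortex was -0.0033 over 36 neighbours of Maco1, -0.030 over 46 of Tmem179, 0.020 over 24 of Tmem63c, 0.046 over 5 of Tram1l1, 0.034 over 12 of Nipal2 and -0.053 over 80 of Plppr3. Since the 6 genes were chosen for high fold changes, a higher place than their neighbours in the region of the choice is no finding. In the frontal cortex no neighbour of Maco1, Tmem179, Tram1l1 or Nipal2 reached the fold change of that gene, 1 of those of Tmem63c did, and 8 of those of Plppr3. The striatum had 1 such neighbour for Maco1, 2 for Nipal2, 1 for Plppr3 and none for the other genes. In the hippocampus there were 1 for Maco1, 4 for Tmem179, 1 for Tmem63c, 2 for Tram1l1, 10 for Nipal2 and 25 for Plppr3.

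**Figure D5:**
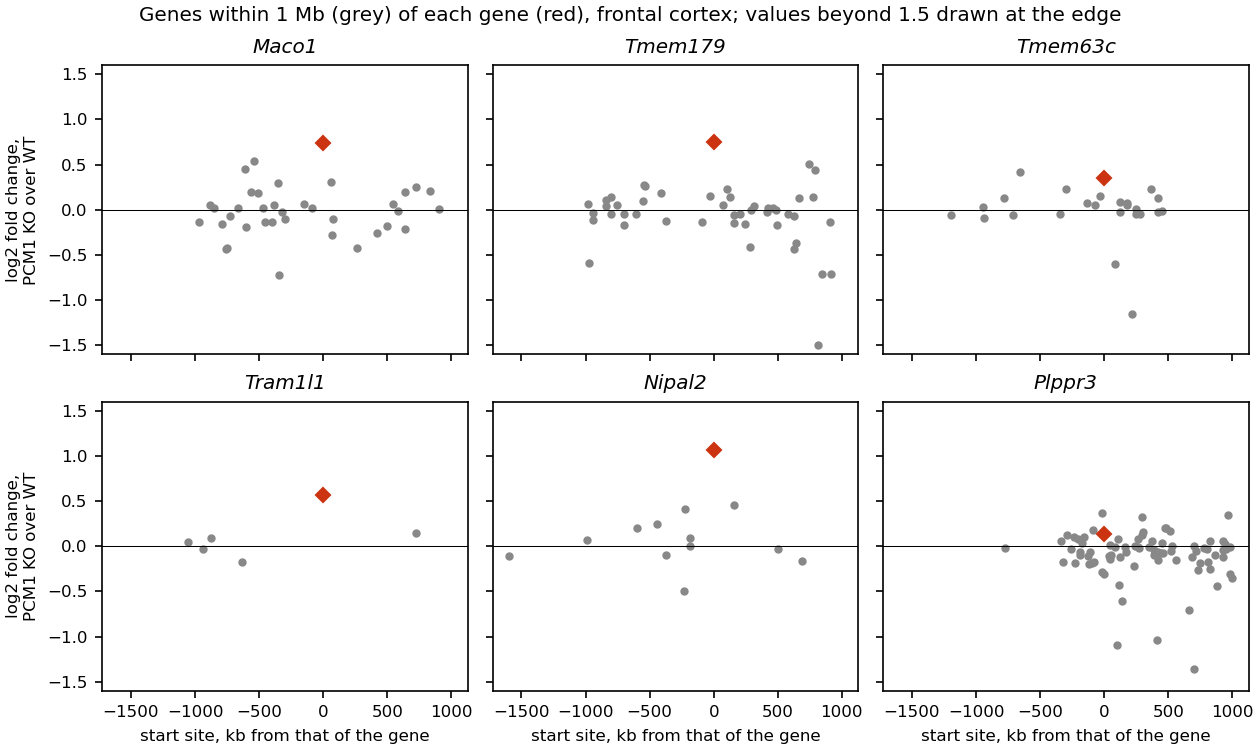
Log2 fold change of Pcm1-/- (PCM1 KO) over WT in the frontal cortex (vertical axes) of the tested genes whose bodies lie within 1 Mb of each gene (grey points) and of the gene itself (red diamond), by distance between start sites in kb (horizontal axes). The red diamonds of Maco1, Tmem179, Tram1l1 and Nipal2 lie above all grey points of their panels, which their choice for high fold changes favours.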

How the data were processed

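RNA from 3 brain regions of WT and Pcm1-/- littermates was sequenced from stranded mRNA libraries. The authors trimmed reads with Trim Galore and cutadapt (at least 20 nt kept), mapped them to GRCm38 with STAR, kept those with a single position and compiled gene counts with HTSeq. The counts that the authors deposited are raw, with a file for each library. Tool versions and the strand setting are not given in the sources used here. The study used edgeR on genes with at least 10 counts in any library. Here the same filter was used with edgeR 4.0.16 in R 4.3.3, with settings chosen for this work (the quasi-likelihood test, TMM factors, p-values adjusted by Benjamini-Hochberg), to compare genotypes within each region, and regions over all 18 libraries and both genotypes. log2 CPM used a prior count of 2. Depth was 24950537 to 33405081 counts on genes, 86.8 to 89.2% of the reads in each file. DESeq2 1.42.0, other filters and scaling, lane, blocks and leaving out each library were alternatives. The test was checked on simulated data. Positions and exon lengths came from GENCODE vM21, which matched 36723 of the 38561 identifiers, and promoters from RefSeq. Plots used matplotlib 3.10.9.

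The 6 genes, the lists of related genes and markers, and the tests were chosen with earlier results of these data known. Named are the 6 genes, their closest family relatives, up to 4 genes of each list per region at an adjusted p under 0.05, the 3 genes most like each of the 6, overlapping genes, and Pcm1. Tmem50a was named after its value was seen. The file names give 6 animals, each with 3 libraries, and the labels do not describe the animals further. No libraries of 1 group agreed within sampling noise.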

Additional observations from a re-analysis of the deposited data

How the results depend on the processing

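Log2 fold changes of the 6 genes kept their direction in 226 of 228 alternative values, and the exceptions were Plppr3 in the hippocampus (range -0.037 to 0.12), at -0.037 and -0.034 when WT replicate 1 or mutant replicate 2 was left out. Counts of genes called were less stable, and the cause was not tested. In the frontal cortex 306 genes passed, against 505 with no filter, 690 with DESeq2, 29 with lane in the model, 176 in 1 fit of all 18 libraries and 11 to 825 with single libraries left out. Related genes there numbered 20, against 34 with DESeq2, 0 with lane, 11 in the fit of all libraries and 0 to 39 with single libraries left out. In the striatum 5 genes passed, against 61, 488 and 54 with no filter, DESeq2 and the fit of all libraries and 2 to 5 with single libraries left out, and related genes were 0 against 1, 18 and 5. In the hippocampus 3 genes passed, against 220 with DESeq2, 205 in the fit of all libraries and 1 to 11 with single libraries left out, and related genes were 0 against 9 and 8. Lane could not be fitted in the striatum.

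A block by replicate number called 665 cortical, 3 striatal and 9 hippocampal genes, and 32 related genes in the frontal cortex. Same-numbered libraries of both genotypes correlated at 0.0428 to 0.260, -0.269 to 0.178 and 0.0955 to 0.507 in the 3 regions after removal of group means. Differently numbered ones gave -0.223 to 0.0395 in the frontal cortex and -0.387 to 0.232 in the hippocampus. In the WT striatum the numbers follow the animals in another order. Matched by the cortical numbers of their animals, striatal libraries gave 0.0635, 0.388 and 0.229. The labels name no pairs of WT and mutant animals, so the main genotype tests used none. Whether the animals form pairs was not tested. Pairing by the animal in the file names changed 1 call between regions, Tmem179 in striatum against frontal cortex (-0.22, adjusted p = 0.0379, edgeR).

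For regions, WT libraries alone called 5230 genes and 3 of the 6 for hippocampus against frontal cortex and 5126 genes for striatum against hippocampus, and Nipal2 reversed to 0.49 in the former. Tmem63c in striatum against hippocampus, which did not pass, ranged from -0.021 to 0.089, with reversed values of -0.0097, -0.021, -0.0088 and -0.011. With 3 libraries per group, biological variation of 9.49%, 13.8% and 16.4% (frontal cortex, striatum, hippocampus) limits what small differences the test can show.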
